A study of Mus musculus with 16 samples.

Results

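The genes of the pore-forming alpha-1 subunits of voltage-gated calcium channels were followed in cortices of 16 mouse pups at P7. Members were the entries of the gene table with the symbols Cacna1a, Cacna1b, Cacna1c, Cacna1d, Cacna1e, Cacna1f, Cacna1g, Cacna1h, Cacna1i and Cacna1s, which are 10 of 36930 entries. All 10 passed the filter on low values, which left 21183 entries for testing. Of the pups, 8 were Avil-ChR2 mice, in which Cre recombinase under the promoter of advillin (Avil), a gene of sensory neurons, removes the stop in front of a floxed channelrhodopsin-2 (ChR2) and td-Tomato construct in the Rosa26 locus (Ai27D). The other 8 were ChR2-flfl litter mates with the same floxed construct but without Cre. Both genotypes were on a C57BL6 background and were kept under blue light for 1 h a day from P1 to P5, and the comparison was set up to ask about repeated activation of sensory neurons in the first days of life. Because every pup was lit, activation cannot be told apart from the presence of the Cre driver or of ChR2. The labels list 4 male and 4 female ChR2-flfl pups, and 3 male and 5 female Avil-ChR2 pups.

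Alpha-1 subunits form the pore and carry the voltage sensors of calcium channels. Each consists of 4 homologous domains, and a loop between the last membrane segments of each domain contributes 1 acidic residue to the selectivity filter that lets calcium pass. High-voltage-activated channels comprise the L type (Cacna1s, Cacna1c, Cacna1d and Cacna1f, for Cav1.1 to Cav1.4), the P/Q type (Cacna1a), the N type (Cacna1b) and the R type (Cacna1e). Low-voltage-activated or T-type channels are encoded by Cacna1g, Cacna1h and Cacna1i. In cortical neurons, P/Q- and N-type channels trigger transmitter release at nerve endings, L-type channels of the cell body and dendrites link activity to gene expression, R-type channels act in dendrites, spines and nerve endings, and T-type channels open near the resting potential and favor burst firing.

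The split between both classes can be read in the genes. The coding strand is shown for the filter loop of the fourth domain because this stretch lies in a single exon in all 10 genes. The sequences are 27 bases of the longest coding transcript in GENCODE M21 (GRCm38), and the capitals mark the codon of the acidic filter residue.
Cacna1s (L type, chr1:136107018-136107044, plus strand, exon 33): tgtgccacagggGAAgcctggcaagag
Cacna1c (L type, chr6:118614050-118614076, minus strand, exon 36): tgtgccaccggaGAGgcctggcaggac
Cacna1d (L type, chr14:30075944-30075970, minus strand, exon 36): tgtgcaacagggGAAgcctggcaggag
Cacna1f (L type, chrX:7629416-7629442, plus strand, exon 36): tgtgccactggtGAGgcctggcaagag
Cacna1a (P/Q type, chr8:84611599-84611625, plus strand, exon 35): agcgccacaggaGAAgcgtggcacaac
Cacna1b (N type, chr2:24635213-24635239, minus strand, exon 36): agtgccactgggGAGgcctggcatgag
Cacna1e (R type, chr1:154425975-154426001, minus strand, exon 37): agtgccacggggGAGgcttggcaggag
Cacna1g (T type, chr11:94416415-94416441, minus strand, exon 32): gtctccactggtGACaactggaatggt
Cacna1h (T type, chr17:25377771-25377797, minus strand, exon 31): gtgtccactgggGACaactggaatggg
Cacna1i (T type, chr15:80388485-80388511, plus strand, exon 31): gtctccacaggcGATaactggaatggg
The marked codon is GAA or GAG, for glutamate, in the 7 high-voltage-activated genes, and GAC or GAT, for aspartate, in the 3 T-type genes. The same holds for the third domain. Over these 27 bases, 2 T-type genes shared 23 to 24 bases, 2 high-voltage-activated genes shared 18 to 25, and a gene of one class shared 12 to 18 bases with a gene of the other.

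The members are long genes. Their span on GRCm38 was 611.7 kb for Cacna1c (chromosome 6, 118587240 to 119198921, minus strand), 494.0 kb for Cacna1e (chromosome 1, 154390806 to 154884782, minus strand) and 452.4 kb for Cacna1d (chromosome 14, 30039941 to 30492363, minus strand), then 301.6 kb for Cacna1a (chromosome 8, 84338633 to 84640249, plus strand) and 159.3 kb for Cacna1b (chromosome 2, 24603860 to 24763195, minus strand). The T-type genes were shorter, with 111.1 kb for Cacna1i (chromosome 15), 66.0 kb for Cacna1g (chromosome 11) and 59.5 kb for Cacna1h (chromosome 17). Cacna1s (chromosome 1) spans 67.0 kb and Cacna1f (X chromosome) 28.2 kb. Among the 15137 genes expressed at a mean log2 CPM of 0 or more, the median span was 25.5 kb. The longest transcripts of the members had a median of 9020.5 bases, against 3462 bases for the other genes at that level with a known transcript length. Of the 10 members, 5 were longer than the 95th percentile of 8510 bases.

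Values are counts per 1e+06 reads (CPM), scaled between libraries by TMM, and are given as mean ± SD of the pups of a genotype (n = 8 unless another n is stated). Libraries of ChR2-flfl cortices held 30549126 to 48707429 reads, with replicate 3 as the lowest, and those of Avil-ChR2 cortices 47791532 to 48711134. Avil, which marks the genotype, had 0.825 to 1.46 CPM in ChR2-flfl pups and 37.3 to 46.4 CPM in Avil-ChR2 pups, without overlap, so that the labels held in all 16 pups. The tissue label was checked with marker genes. The summed value of 6 markers of excitatory cortical neurons, of which Slc17a7 was the most abundant, was 1252 to 1331 CPM in ChR2-flfl and 1296 to 1366 CPM in Avil-ChR2 pups. Markers of inhibitory neurons summed to medians of 281 and 286 CPM, with Gad1 as the most abundant. Markers of striatum had medians of 118 and 116 CPM (most abundant Rgs9) and those of thalamus 83.4 and 82.1 CPM (Slc17a6), so that the samples hold transcripts which these regions also express. The 4 markers of sensory ganglia summed to 3.82 and 4.05 CPM, mostly Prph, and 3 of them were below 1 CPM. Medians were 581 and 583 CPM for astrocytes, 211 and 217 CPM for the oligodendrocyte lineage, 61.8 and 68.0 CPM for microglia, 58.2 and 61.2 CPM for endothelium, 171 and 153 CPM for blood, 48.0 and 46.0 CPM for hippocampus and 1.32 and 1.39 CPM for choroid plexus, with overlap between the genotypes in each, and P2ry12 of the 4 microglia markers was listed at 0. In bulk tissue, fewer cells of a type and less RNA per cell cannot be told apart.

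Levels were compared per kb of the longest transcript. In ChR2-flfl cortices Cacna1a had the highest level with 31.6 ± 1.98 CPM per kb, followed by Cacna1b with 29.8 ± 2.28 and Cacna1g with 28.1 ± 3.42. The values of these 3 genes overlapped between pups. A gap separated them from Cacna1i with 17 ± 1.72, Cacna1e with 15.3 ± 2.21, Cacna1h with 13.8 ± 1.73, Cacna1d with 10.7 ± 1.4 and Cacna1c with 10.2 ± 0.950 CPM per kb, and each gene in this row overlapped with the next. On this scale, the main channels of transmitter release and the T-type gene Cacna1g thus had the highest levels. Cacna1s, the channel of skeletal muscle, had 0.193 ± 0.0325 and Cacna1f, the channel of photoreceptors, 0.0693 ± 0.0277 CPM per kb, both far below all others. Cacna1s had 32 to 70 reads per ChR2-flfl pup and Cacna1f 6 to 37. Markers of skeletal muscle summed to medians of 14.3 and 14.6 CPM, with Myh3 as the most abundant and 3 of 5 below 1 CPM. Markers of the retina summed to 0.713 and 0.71 CPM, with Rcvrn listed at 0 and all 4 below 1 CPM.

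**Figure D1:**
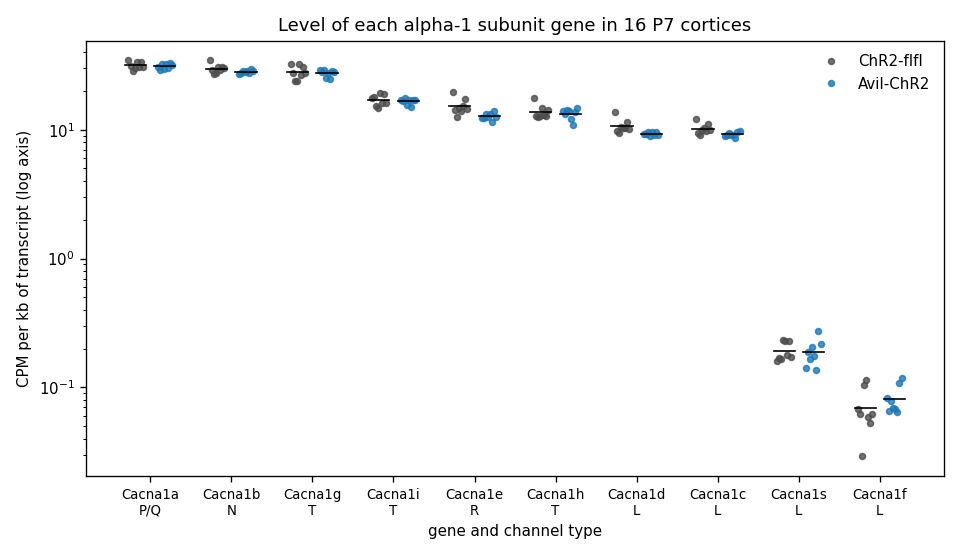
Level of each alpha-1 subunit gene in CPM per kb of its longest transcript (log axis), with 1 point per pup, ChR2-flfl in grey and Avil-ChR2 in blue, and lines at the means of 8 pups. The order runs from Cacna1a (31.6 CPM per kb in ChR2-flfl) to Cacna1f (0.0693), and Cacna1s and Cacna1f lie far below the other 8 genes.

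Neighbors in this order were also compared within each pup. Cacna1a was above Cacna1b in all 8 ChR2-flfl and all 8 Avil-ChR2 pups, whereas Cacna1b was above Cacna1g in 7 of 8 and 5 of 8, and Cacna1d above Cacna1c in 7 of 8 and 6 of 8. Cacna1e was above Cacna1h in 6 of 8 ChR2-flfl but in 3 of 8 Avil-ChR2 pups, and this difference in order was not tested. The order depended on the length used. Per kb of coding sequence Cacna1b came first with 41.6 ± 3.18 CPM, before Cacna1a with 35.2 ± 2.21, and Cacna1e moved up to the third place with 33.4 ± 4.84, because its longest transcript has 14921 bases but only 6819 coding bases. Cacna1c with 20.1 ± 1.88 was then above Cacna1d with 15.8 ± 2.07. The gap after Cacna1g was also lost, since its lowest value of 27.9 was below the highest of Cacna1i, 28.7.

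Genotypes were compared by log2 differences, negative where Avil-ChR2 cortices had less, tested with limma over all 21183 entries with Benjamini-Hochberg adjustment. No alpha-1 gene passed an adjusted p of 0.05, and adjusted p ranged from 0.72 for Cacna1e to 0.99 for Cacna1s. At an unadjusted p under 0.05, 4 of 10 were lower in Avil-ChR2 cortices, where 3.46% of all genes were, and 0 of 10 were higher, where 1.95% of all genes were. The 4 genes were the R-type gene Cacna1e, the L-type genes Cacna1d and Cacna1c, and the N-type gene Cacna1b. The ChR2-flfl mean was above the values of all 8 Avil-ChR2 pups in 4 of 10 members and 3.35% of all genes. These were the same 4 genes, and the count rests on the same values as the test. The median log2 difference was -0.049 for the 10 members and 0.0020 for all genes.

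Cacna1e, the R-type channel, had 186, 218 and 291 CPM in the lowest, median and highest ChR2-flfl pup, and 172, 187 and 207 CPM in Avil-ChR2 pups. The groups overlapped, but 4 Avil-ChR2 pups fell outside the ChR2-flfl range at its lower end and 7 ChR2-flfl pups were above the highest Avil-ChR2 pup. Means were 228 ± 33.0 and 189 ± 10.5 CPM. The log2 difference was -0.25 (95% interval -0.39 to -0.12), which is a fold of 0.838 on that scale, with an exact permutation p = 0.0019 and a limma adjusted p = 0.72. It was -0.25 within pups 26 to 33 and -0.26 within pups 35 to 42, the 2 runs of pup numbers, each with 4 pups per genotype. Of the 10 genes it had the largest difference among those with more than 1 CPM.

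Cacna1d encodes Cav1.3, an L-type channel that opens at relatively negative potentials. It had 90.8, 99.4 and 134 CPM in the lowest, median and highest ChR2-flfl pup, and 86.6, 89.2 and 93.3 CPM in Avil-ChR2 pups. Here 5 Avil-ChR2 pups were below all ChR2-flfl pups, and 7 ChR2-flfl pups were above all Avil-ChR2 pups. The log2 difference was -0.19 (95% interval -0.31 to -0.073), with an exact permutation p = 0.0011 and a limma adjusted p = 0.77. It was -0.21 among pups 26 to 33, with a 95% interval that included 0 (-0.42 to 0.0020), and -0.17 among pups 35 to 42 (-0.28 to -0.069). The gene shares part of its range with Dcp1a on the opposite strand, a decapping factor with 23.1% of the CPM of Cacna1d. Whether the counting used strand is not given in the sources used here. Dcp1a had 22.5 ± 0.867 and 22.1 ± 1.08 CPM and a log2 difference of -0.024, and its part in the values of Cacna1d was not tested.

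Cacna1c encodes Cav1.2, the main L-type channel of brain and heart. Its lowest, median and highest values were 119, 130 and 158 CPM in ChR2-flfl and 114, 120 and 129 CPM in Avil-ChR2 pups, and 2 Avil-ChR2 pups lay below all ChR2-flfl pups. The log2 difference was -0.14 (95% interval -0.24 to -0.046), with an exact permutation p = 0.0095 and a limma adjusted p = 0.81. Both runs of pup numbers had similar values, with -0.13 (95% interval -0.29 to 0.023) and -0.15 (-0.26 to -0.037), and the interval of pups 26 to 33 included 0. Its range overlaps with Dcp1b on the opposite strand, which had 9.97% of its CPM and a log2 difference of 0.020.

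Cacna1b, the N-type channel of nerve endings, had 265, 287 and 336 CPM in the lowest, median and highest ChR2-flfl pup and 263, 274 and 289 CPM in Avil-ChR2 pups. A single Avil-ChR2 pup was below the ChR2-flfl range. The log2 difference of -0.080 was small and close to the threshold (95% interval -0.16 to -0.00042), with an exact permutation p = 0.057 and a limma adjusted p = 0.91. All permutation tests were two-sided and are not adjusted over genes.

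The P/Q-type gene Cacna1a, the other channel of transmitter release, had 226, 246 and 273 CPM in ChR2-flfl and 230, 247 and 259 CPM in Avil-ChR2 pups. The ranges lay over each other, the ChR2-flfl mean divided the Avil-ChR2 pups into 4 lower and 4 higher, and the log2 difference was -0.024 with a 95% interval from -0.10 to 0.053. The T-type genes had similar intervals around 0. Cacna1g had 235 ± 28.7 and 230 ± 13.8 CPM, a log2 difference of -0.028 with an interval from -0.16 to 0.10. For Cacna1h it was -0.047 (-0.19 to 0.096) and for Cacna1i -0.031 (-0.14 to 0.078). The lower ends of these intervals, from -0.10 for Cacna1a to -0.19 for Cacna1h, show which lower levels the data do not exclude. Among pups 26 to 33, the T-type genes had differences above 0, with 0.051 for Cacna1g, 0.0081 for Cacna1h and 0.025 for Cacna1i. Among pups 35 to 42 the values were -0.11, -0.10 and -0.088. The genotype by run interaction had an unadjusted p under 0.05 for 0 of 10 members, where 3.04% of all genes passed, and its limma adjusted p was 1.00 for all members.

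The genes of muscle and retina had few reads and wide intervals. Cacna1s had 1.01, 1.09 and 1.46 CPM in ChR2-flfl and 0.859, 1.13 and 1.70 CPM in Avil-ChR2 pups, with a log2 difference of -0.052 and an interval from -0.35 to 0.25. Cacna1f had 0.194, 0.415 and 0.763 CPM in ChR2-flfl and 0.429, 0.489 and 0.782 CPM in Avil-ChR2 pups, with a log2 difference of 0.31 and an interval from -0.18 to 0.80. It was 0.15 without ChR2-flfl replicate 3, which had 6 reads of this gene, and 0.086 on the scale of log2(CPM + 1).

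**Figure D2:**
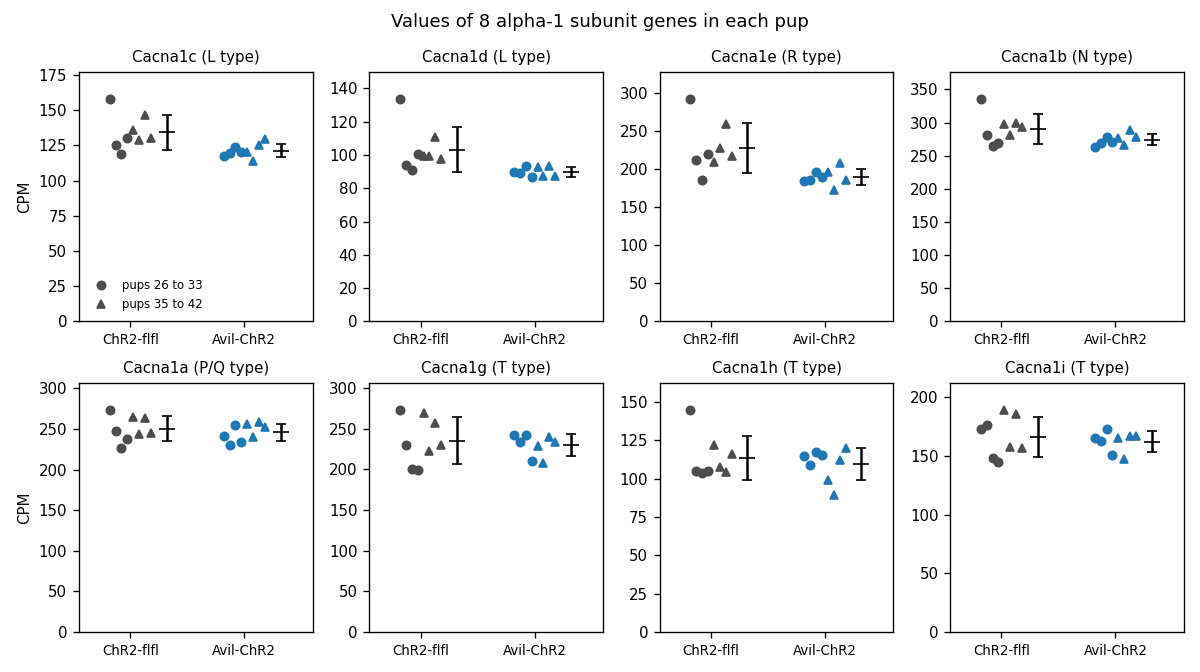
CPM of 8 alpha-1 subunit genes in each pup, with circles for pups 26 to 33, triangles for pups 35 to 42, and mean and SD of 8 pups beside the points. Values of Cacna1c, Cacna1d and Cacna1e are lower and closer together in Avil-ChR2 pups, whereas those of Cacna1a, Cacna1g, Cacna1h and Cacna1i overlap widely, and ChR2-flfl replicate 1 has the highest ChR2-flfl value in 7 genes, all shown but Cacna1i.

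Spread between ChR2-flfl pups was larger than between Avil-ChR2 pups. The variance of log2 values in ChR2-flfl was above that in Avil-ChR2 pups in 9 of 10 members, all but Cacna1s, with a median ratio of 3.75. Among the 15137 genes at a mean log2 CPM of 0 or more, the ratio was above 1 in 63.0%, and the median was 1.3. The ratio was 14.1 for Cacna1d and 6.29 for Cacna1e. Without ChR2-flfl replicate 1 it was 3.62 for Cacna1d and 3.27 for Cacna1e, and above 1 in 8 of 10 members with a median of 2.99, since that of Cacna1h was then 0.400, against 58.1% and a median of 1.19 for the 15137 genes. This single animal had the highest ChR2-flfl value of 7 of 10 members, and of 15.1% of all genes. Relative to the mean of all 16 pups, it was higher by 0.50 on the log2 scale for Cacna1e, 0.48 for Cacna1d, 0.38 for Cacna1h and 0.31 for Cacna1c. When this pup was left out, the genotypes differed by -0.20 for Cacna1e (95% interval -0.31 to -0.093), -0.14 for Cacna1d (-0.21 to -0.064), -0.11 for Cacna1c (-0.19 to -0.029) and -0.050 for Cacna1b (-0.11 to 0.012), so that the interval of Cacna1b included 0. The adjusted p was then 0.90 or above for all members. It was 0.19 for Cacna1e when ChR2-flfl replicate 3, the library with the fewest reads, was left out as well.

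**Figure D3:**
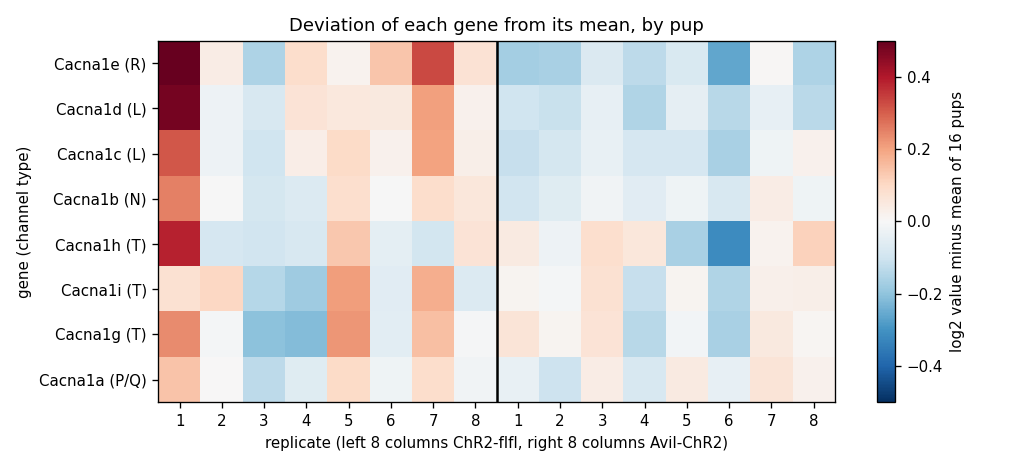
Log2 value of each of 8 alpha-1 subunit genes minus its mean over 16 pups, with 1 column per pup (ChR2-flfl left of the line, Avil-ChR2 right) and red for higher and blue for lower values. ChR2-flfl replicate 1 stands out with deviations of up to 0.50, and all 8 genes lie above their means in ChR2-flfl replicates 1 and 5 and below them in ChR2-flfl replicate 3 and Avil-ChR2 replicate 6, whereas the other columns hold both signs.

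Members other than Cacna1s varied together from pup to pup to different degrees. Over 16 pups, after subtraction of the genotype means, Pearson's r was 0.93 between Cacna1d and Cacna1e, 0.89 between Cacna1c and Cacna1e, and 0.90 between Cacna1g and Cacna1i (Spearman's rho 0.78, 0.77 and 0.86). Without the 2 pups farthest from the median, r was 0.86, 0.70 and 0.83. These are pairs with high values. Over the 28 pairs of the 8 abundant members, r ranged from 0.39 to 0.93 with a median of 0.73, and without 2 pups from 0.068 (Cacna1e and Cacna1h) to 0.86 with a median of 0.60. Cacna1s had r between 0.016 and 0.33 with the others, and between -0.037 and 0.47 without 2 pups, which overlaps with the range of the other pairs. Cacna1f was not included. All these values share the library of the pup. The genes with the most similar pattern were determined among all genes at a mean log2 CPM of 0 or more. For Cacna1e these were Herc1 (r = 0.98), Huwe1 (0.97) and Nsd1 (0.96), for Cacna1d Herc1 (0.94), Mdn1 (0.94) and Macf1 (0.94), and for Cacna1c Ubr4 (0.96), Nav2 (0.95) and Nav1 (0.94). In the same order, Spearman's rho was 0.97, 0.95 and 0.94 for Cacna1e, 0.77, 0.79 and 0.82 for Cacna1d, and 0.92, 0.93 and 0.88 for Cacna1c. Without 2 pups, r was 0.95, 0.90 and 0.93 for Cacna1e, 0.86, 0.78 and 0.83 for Cacna1d, and 0.90, 0.89 and 0.87 for Cacna1c. Cacna1b had Ubr4, Nav2 and Pkd1, with r between 0.93 and 0.94. For Cacna1a the top gene was Kalrn (0.92), for Cacna1g Coro7 (0.94), for Cacna1h Lrrc16b (0.95), for Cacna1i Sema6c (0.93) and for Cacna1s Nme5 (0.85).

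Because the members have long transcripts, a slope of log2 deviations on log2 transcript length was calculated for each pup over 13835 other genes. It was 0.0094 ± 0.020 per doubling of length in ChR2-flfl and -0.0094 ± 0.010 in Avil-ChR2 pups (two-sided exact permutation test, p = 0.038, and 0.086 after adjustment over the 3 slopes calculated). The slope on genomic span gave 0.0046 ± 0.010 and -0.0046 ± 0.0073 (exact permutation p = 0.058), and that on GC content gave -0.013 ± 0.075 and 0.013 ± 0.058 per 10 percentage points of GC (exact permutation p = 0.44). The slopes of both groups overlapped, and none of the 3 passed 0.05 after adjustment. With the slope on genomic span in the fit, 3 of 10 members were lower at an unadjusted p under 0.05, against 3.21% of all genes, with -0.19 for Cacna1e (95% interval -0.33 to -0.041), -0.13 for Cacna1d (-0.26 to -0.0100) and -0.10 for Cacna1c (-0.21 to -0.0013). With the GC slope alone it was 4 of 10, against 3.83%. With the transcript length slope it was 1 of 10, against 1.95%. Here Cacna1e differed by -0.16 (95% interval -0.31 to -0.017), Cacna1d by -0.11 (-0.23 to 0.011), Cacna1c by -0.085 (-0.19 to 0.018) and Cacna1b by -0.048 (-0.14 to 0.043). With both the length and the GC slope it was -0.13 for Cacna1e (-0.26 to -0.0029), -0.081 for Cacna1d (-0.18 to 0.021), -0.056 for Cacna1c (-0.13 to 0.021) and -0.023 for Cacna1b (-0.090 to 0.045), and 1 of 10 members had an unadjusted p under 0.05, against 2.03% of all genes. The limma adjusted p of Cacna1e was 0.9996 with the transcript length slope and 0.9998 with both slopes. The fits with transcript length or GC slopes were chosen after the data had been seen, and the part of transcript length in the difference was not tested beyond them.

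**Figure D4:**
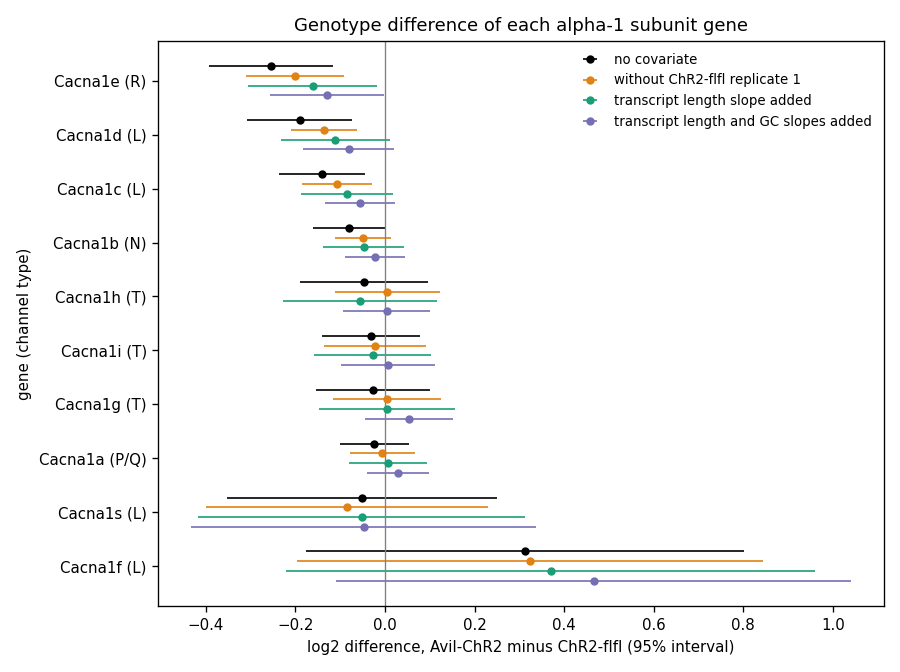
Log2 difference between the genotypes for each alpha-1 subunit gene, with 95% intervals of limma, for the fit without a covariate (black), without ChR2-flfl replicate 1 (orange), and with the slopes of each pup on transcript length (green) or on transcript length and GC content (purple) as covariates. For Cacna1e the point moves from -0.25 to -0.13, and with both slopes the interval ends at -0.0029 (limma adjusted p = 0.9998). The intervals of Cacna1d, Cacna1c and Cacna1b reach 0 with the slopes.

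Whether the types shifted against each other was examined by the ratio of each gene to Cacna1a within the same pup. This ratio was lower in Avil-ChR2 pups at an unadjusted p under 0.05 for 3 of 9 members, where 1.63% of all genes passed in this direction. The log2 difference of the ratio was -0.23 for Cacna1e (95% interval -0.34 to -0.12), -0.17 for Cacna1d (-0.26 to -0.070) and -0.12 for Cacna1c (-0.20 to -0.037). Cacna1b, the other presynaptic channel, had -0.056 (-0.13 to 0.016), and the T-type genes lay between -0.022 and -0.0031. The adjusted p over all genes was 0.47 for Cacna1e and 0.99 for Cacna1d and Cacna1c. Against Cacna1c, the ratio of Cacna1d differed by -0.050 (-0.14 to 0.044), so that a difference between both L-type genes was within the error. That of Cacna1e differed by -0.11 (-0.21 to -0.014, limma adjusted p = 0.11). The ratios of Cacna1a and Cacna1g to Cacna1c were higher in Avil-ChR2 pups, with 0.12 (0.025 to 0.21, limma adjusted p = 0.099) and 0.11 (0.0070 to 0.22, limma adjusted p = 0.12). The median difference of this ratio over all genes was 0.14, so that neither gene rose more against Cacna1c than the typical gene. At an unadjusted p under 0.05, 2 of 9 members were higher and 1 was lower, against 7430 and 93 of 21182 genes. Of all alpha-1 transcripts per kb, T-type genes made up 37.6 ± 1.28% in ChR2-flfl, as against 38.7 ± 1.19% in Avil-ChR2 cortices, the P/Q type 20.2 ± 0.584% and 21 ± 0.631%, and the N type 19.1 ± 0.438% and 19.0 ± 0.492%. The L-type genes had 13.5 ± 0.602% and 12.7 ± 0.165%, and the R type had 9.71 ± 0.769% and 8.58 ± 0.271%. The lowest and highest shares of the R type were 8.47 and 10.7% in ChR2-flfl and 8.22 and 8.96% in Avil-ChR2 pups, so that the groups overlapped. These shares depend on the length used. In ChR2-flfl cortices Cacna1e had rank 5 per kb of the longest transcript and rank 3 per kb of coding sequence.

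In the fit with genotype as a covariate, males had higher values than females for 9 of 10 members and 48.5% of all genes, and 2 of 10 had an unadjusted p under 0.05, against 2.33% of all genes. These were Cacna1g with a log2 difference of 0.14 (male minus female, 95% interval 0.023 to 0.25) and Cacna1b with 0.077 (0.0022 to 0.15), with an adjusted p of 0.99 for both. In Cacna1g, ChR2-flfl males had 258 ± 19.3 (SD, n = 4) and ChR2-flfl females 213 ± 15.5 CPM (SD, n = 4). The lowest of these males had 230.7 and the highest of these females 229.9 CPM, so that their ranges nearly met. How many of all genes were separated in this way was not examined. Avil-ChR2 males had 230 ± 19.6 (SD, n = 3) and Avil-ChR2 females 230 ± 12 CPM (SD, n = 5). The genotype by sex interaction was below 0 for 10 of 10 members and 49.9% of all genes, and had an unadjusted p under 0.05 for 5 of 10, against 2.43% of all genes in this direction. The 5 were Cacna1h (-0.30), Cacna1g (-0.27), Cacna1c (-0.22), Cacna1i (-0.20) and Cacna1b (-0.17), with a limma adjusted p of 0.99 for each. In males alone, the genotypes differed by -0.21 for Cacna1h, -0.17 for Cacna1g and -0.26 for Cacna1c, and in females alone by 0.090, 0.11 and -0.036, with limma adjusted p of 1.00 in males and 0.99 in females for each. Cacna1b had -0.17 in males and 0.0036 in females (95% interval -0.062 to 0.069), and Cacna1d had -0.28 and -0.098. The median log2 difference of the 10 members was -0.17 in males and 0.037 in females, and that of all genes was 0.0023 and 0.00014. Cacna1e had -0.37 in males and -0.15 in females, but its interaction had an interval from -0.49 to 0.039. Without ChR2-flfl replicate 1, a male, 3 of 10 had an unadjusted p under 0.05 in the interaction, against 1.95% of all genes, and with both slopes of each pup in the fit it was 0 of 10, against 2.06%. The study's own sample list gives Avil-ChR2 replicate 4 as male, where the label says female. With that list, 5 of 10 passed for the interaction, against 3.31% of all genes, with Cacna1a in place of Cacna1h, and 0 of 10 for the sex difference, against 1.78%. Between the runs of pup numbers, 0 of 10 members differed at an unadjusted p under 0.05, against 12.5% of all genes.

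Genes of channel partners and calcium signalling were described as 3 lists, in which no gene had an adjusted p under 0.05. Among all genes, 3.46% were lower and 1.95% higher at an unadjusted p under 0.05, and the counts of the lists are to be read against these shares. The 3 lists together had 4 entries at an unadjusted p under 0.05. With the transcript length slope they had 1, where 789 of 21183 genes passed, and within pups 26 to 33 they had 0, where 672 passed. Of 16 genes for auxiliary alpha-2-delta, beta and gamma subunits, 0 had an unadjusted p under 0.05, and the median log2 difference was 0.031. The most abundant were Cacna2d1, with 352 ± 35.1 and 326 ± 20.3 CPM and a log2 difference of -0.10 (limma adjusted p = 0.91), Cacnb3 with 0.017 and Cacnb4 with -0.020. Of the gamma genes, Cacng2, Cacng3, Cacng4 and Cacng8 are best known as partners of AMPA receptors. Among proteins that bind or regulate the channels, 18 of 19 genes were in the table, with 2 entries for Rims1, and 1 of the 19 entries was lower and 1 higher at an unadjusted p under 0.05. Stac3, an adaptor that carries Cav1.1 to the membrane in muscle, had 3.84 ± 0.605 and 3.09 ± 0.432 CPM, a log2 difference of -0.31 (limma adjusted p = 0.81). With both the transcript length and the GC slope in the fit, this difference was -0.19. Stac3 lies 480.6 kb from Avil on chromosome 10, from 127501617 to 127508823. Rem2, a small GTPase that inhibits calcium channels, had a log2 difference of 0.14 (limma adjusted p = 0.91). Among the most abundant genes of this list, the log2 difference was 0.030 for Calm3 and -0.0072 for Calm2. Of 15 genes for calcium-dependent signalling, 0 were lower and 2 were higher at an unadjusted p under 0.05. Both encode kinases that activate other calmodulin-dependent kinases. Camkk1 had 46.9 ± 1.2 and 49.2 ± 1.44 CPM, a log2 difference of 0.071 (limma adjusted p = 0.82). With both slopes this difference was 0.042. Camkk2 had 296 ± 16.4 and 311 ± 11.1 CPM, a log2 difference of 0.071 (limma adjusted p = 0.91). The most abundant genes were Camk2b, Camk2a and Ppp3cb, with log2 differences of 0.028, 0.096 and -0.017.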

How the data were processed

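Cortices of 16 pups were sequenced from stranded mRNA libraries (TruSeq, 75 cycles). According to the study's methods, the authors aligned reads to mm10 (GRCm38) with SeqMan NGen 17, displayed mapped reads with ArrayStar 17 and normalized them as TMM with edgeR. The deposited values have 1 column per pup, and their sums near 1e+06 and their steps show them to be CPM on a linear scale. Values are whole multiples of that of 1 read (100% of values of up to 20000 reads whole to within 0.05), which gave the reads per gene. Libraries carry no molecular identifiers, so that reads set the counting error only.

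Groups and replicate numbers were taken from the labels. Pups of a genotype are separate animals, but litters are not given. Values were log2 transformed, missing or lower values were set to -5, and entries above -5 in at least 12 of 16 pups were tested with limma 3.58.1 in R 4.3.3 (intensity trend, no covariate, two-sided). Single values were compared with exact permutation tests. Transcript and coding lengths, GC content and filter codons are from the GENCODE annotation. The named genes are the 10 members, and in the lists every gene with an unadjusted p under 0.05 and the 3 most abundant, of which 1 gene is not reported here. Likeness was restricted to the top 3 genes per member. The members and lists were chosen with earlier results of these data known. The scripts were tested on simulated data. Alternatives are given in the closing section.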

Additional observations from a re-analysis of the deposited data

Results flagged for a closer look

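Among 20 sets of 8 values (10 genes in each genotype), 2 had a pup whose distance to the nearest other pup was large relative to the range of the group, where chance alone gives about 1 in 20. Both were the highest value of ChR2-flfl replicate 1, with 134 CPM for Cacna1d and 145 CPM for Cacna1h. The other ChR2-flfl pups ended at lower values in both genes, and the log2 differences between the genotypes without this pup were -0.14 for Cacna1d and 0.0050 for Cacna1h. Its total reads were not unusual, with 48495728, and the source of its high values was not tested.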

How the results depend on the processing

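For the genotype comparison, 2 genes, among them no alpha-1 gene, had an adjusted p under 0.05. The count was 1 with median centring, with the length slope as a covariate, with the replicate block, within pups 26 to 33 or 35 to 42, with the transcript length slope with or without the GC slope, and without ChR2-flfl pups 1 and 3, and 1 to 2 when each pup was left out, whereas it was 3 with the run of pup numbers as a covariate. At an unadjusted p under 0.05 there were 1145 genes, 672 within pups 26 to 33, and 929 to 1581 when each pup was left out. Of the members, 4 were lower, but 1 within pups 26 to 33 and 1 with the transcript length slope with or without the GC slope, and 3 to 4 when each pup was left out. None was higher in any of these fits. The lists had 4 entries, 0 within pups 26 to 33, 1 with the length slope, 1 with the transcript length slope with or without the GC slope, and 2 to 6 when each pup was left out. The cause of these changes was not tested.

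Under 34 alternatives, the differences stayed below 0 between -0.29 and -0.13 for Cacna1e, -0.22 and -0.081 for Cacna1d, -0.17 and -0.056 for Cacna1c, and -0.099 and -0.023 for Cacna1b, and the unadjusted p was under 0.05 in all 34 for Cacna1e, in 31 for Cacna1d and Cacna1c and in 10 for Cacna1b. The lowest adjusted p of Cacna1e over these alternatives was 0.19. The fit of females alone was not among these alternatives, and Cacna1b was at 0.0036 there. Cacna1f stayed above 0, between 0.086 and 0.47, under 33 alternatives. Members with small differences changed sign. Cacna1s was at 0.0030 and 0.0079 without Avil-ChR2 replicate 1 or 6. Cacna1a was at 0.0072 with the transcript length slope and at 0.029 with both slopes. Cacna1g was at 0.051 in pups 26 to 33, 0.011 with array weights, 0.0045 with the transcript length slope, 0.053 with both slopes, and 0.0045 and 0.0018 without ChR2-flfl replicate 1 or 5 (-0.060 to 0.0045 when each pup was left out). Cacna1h was at 0.0081 in pups 26 to 33, 0.0033 with both slopes and 0.0050 without ChR2-flfl replicate 1 (-0.066 to 0.0050 when each pup was left out). Cacna1i was at 0.025 in pups 26 to 33, 0.0013 with array weights and 0.0062 with both slopes. The fits with transcript length or GC slopes, voom on the reads, and without 2 pups, and the fits of sex and its interaction with genotype without ChR2-flfl replicate 1 or with slopes, were chosen after seeing the data.

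The ratio to Cacna1c had 7523 genes at an unadjusted p under 0.05 (7430 higher and 93 lower), and that to Cacna1a had 717. For the sex difference, the sexes of the study list left 0 of 2 members, and 1 without ChR2-flfl replicate 1, where 448 of 21183 genes were higher in males. The interaction with sex had 5 members, 3 without ChR2-flfl replicate 1 and 0 with the slopes added. With sex in the fit, the run difference had 16 genes at an adjusted p under 0.05 instead of 26. The replicate numbers are serial numbers of different animals. Correlations of same-numbered pups lay between -0.34 and 0.39, so that the numbers do not pair the pups, and the replicate block left 3 members (Cacna1c, Cacna1d and Cacna1e) with an unadjusted p under 0.05, where 708 of 21183 genes were lower. The planned count models edgeR and DESeq2 were not run. In their place, voom on the reads worked out from the CPM gave 2 genes at an adjusted p under 0.05, 1209 at an unadjusted p under 0.05 and 4 members lower. Depth limits Cacna1f and Cacna1s, with 6 to 37 and 32 to 70 reads per ChR2-flfl pup.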
